A study of Mus musculus with 6 samples.

Results

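The RNA that stayed on beads carrying IgG was compared with the Input RNA set aside before the pull-down, gene by gene, to describe which transcripts make up the background of an m6A pull-down. Sets of genes were chosen on the raw counts of 4 libraries, 2 bound by IgG and 2 of Input. The main set holds the 1797 genes that reached 10 counts in all 4 libraries. The IgG-only set holds the 126 genes with at least 10 counts in both IgG libraries and 0 in both Input libraries. The table lists 27179 genes, and 2072 of them had at least 10 counts in both IgG libraries. The other 149 of these 2072 genes belong to neither set, and 87 of the 149 were at 0 in 1 of the Input libraries.

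The source of every library was bone marrow stroma from C57BL/6 mice at P2, genotype Cxcl12-dsred/+. Cells were sorted as DsRed-positive and negative for CD45, Ter119 and CD31, which mark blood, erythroid and endothelial cells. The sort, the reporter allele and the age were the same for every library. Input did not go through the pull-down, and the IgG libraries were also shallower, so the steps that set the 2 kinds of library apart cannot be told apart. Per the labels, 6% of the poly(A) RNA was kept as Input, IgG was bound to protein A/G beads, and the bound RNA was released by free m6A nucleotide after 3 kinds of wash. A pair of libraries bound by an antibody to m6A was made the same way and is used here as a further reference. The labels number the libraries 1 and 2 but do not say that they came from separate mice or separate pull-downs, so a p-value here reflects no more than how far these libraries lie apart, which may be technical spread.

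N6-methyladenosine (m6A) is a methyl mark on adenosines inside mRNA. It is written by a METTL3 complex, removed by FTO and ALKBH5 and read by YTH-domain proteins. A pull-down enriches marked RNA with an antibody, and IgG of no chosen specificity on the same beads collects RNA that sticks to beads, tube or immunoglobulin without the mark. Bone marrow stroma of this kind expresses the chemokine CXCL12 and other factors that keep haematopoietic stem cells in place, and gives rise to bone and fat lineages.

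The Input libraries held 7125578 and 9493391 counts, the IgG libraries 2487148 and 1278735, and the anti-m6A libraries 6102070 and 5133237. At least 1 count was found for 10024 and 11186 genes in Input, for 3266 and 2723 in IgG and for 12714 and 12391 in anti-m6A. Levels below are CPM, the library's counts scaled to a total of 1e+06. A count of 0 allows up to 3 counts, which is 0.369 CPM on average in Input, 1.78 CPM in IgG and 0.538 CPM in anti-m6A, for counting error only. In Input, Cxcl12 stood at 5731 and 4751 CPM and Lepr at 324 and 315 CPM, and both mark this stroma. The reads carry no molecular identifiers, so they are not independent molecules.

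The IgG counts lay on fewer genes than the Input counts, in shallower libraries. The main set took 91.4% and 92.0% of the IgG counts, against 49.9% and 50.5% of the Input counts and 58.3% and 59.1% of the anti-m6A counts. Its rule asks for 10 counts in both IgG libraries, which only 2072 genes had, against 8614 genes in both Input libraries. The high IgG share of the main set thus follows in part from the rule. The 10 most abundant genes of each library took 8.01% and 9.62% of the IgG counts and 4.59% and 4.61% of the Input counts. Of 8614 genes with at least 10 counts in both Input libraries, 6059 had 0 counts in both IgG libraries. Most genes of Input were thus not counted in the IgG libraries at all.

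How often a gene was found on the beads went with its level in Input. Taking 7.82 CPM in both libraries as found, which is 10 counts in the shallowest library, 4.68% of 1155 genes with an Input level of 0.5 to 5 CPM were found in IgG. The share was 17.6% of 1730 genes at 50 to 100 CPM, 52.4% of 889 genes at 200 to 500 CPM and 94.1% of 85 genes over 1000 CPM. In the anti-m6A libraries the same 4 classes gave 24.7%, 80.1%, 99.9% and 100%. Genes counted in IgG without reaching 7.82 CPM in both libraries made up 14.5% of the lowest class, more than were found there. They made up 7.92% at 50 to 100 CPM, 8.77% at 200 to 500 CPM and 3.53% over 1000 CPM. Among the genes found in IgG, which leaves these out, the median IgG level was 77.8 CPM in the lowest class. It was 433 CPM at 200 to 500 CPM of Input. These classes are a description over genes, which share the same 4 libraries.

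**Figure D1:**
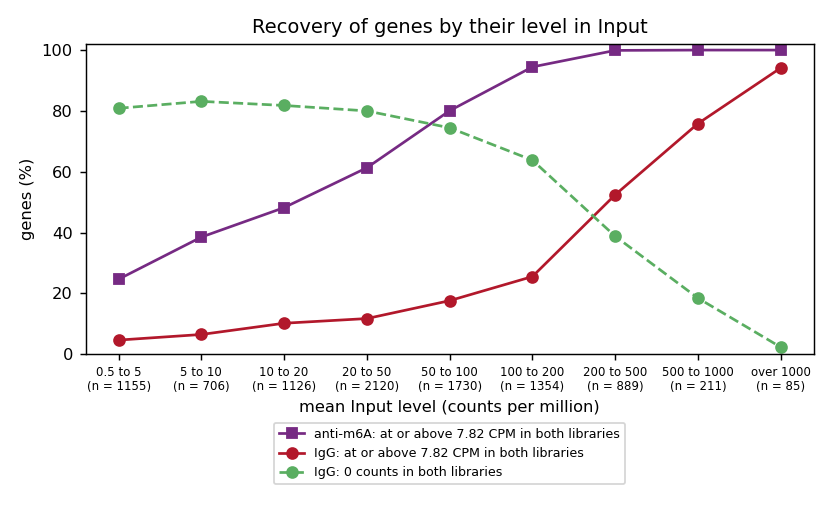
Share of genes (%) by their mean Input level (CPM, in classes, number of genes in brackets) that reached 7.82 CPM in both anti-m6A libraries (purple squares) or both IgG libraries (red circles), or had 0 counts in both IgG libraries (green, dashed). Recovery in IgG rises from class to class, through 25.6% at 100 to 200 CPM, to 94.1% over 1000 CPM. In the class of 100 to 200 CPM anti-m6A reaches 94.5%, and 63.8% of the genes have 0 IgG counts.

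Within the main set, whose rule asks for counts in both IgG libraries, most genes had similar levels in the 2. Over the main set, Pearson's r of the log2 levels was 0.949 between the IgG libraries, 0.892 between the Input libraries and 0.987 between the anti-m6A libraries, given as descriptions over genes. The IgG libraries lay within 2-fold of each other for 90.5% of main-set genes, the Input libraries for 83.3% and the anti-m6A libraries for 96.6%. Between an Input and an IgG library r was 0.418 to 0.512. IgG 1 was the wider of its pair: 2398 genes had at least 10 counts in it and 2087 in IgG 2, and 64 genes with at least 10 counts in IgG 1 were at 0 in IgG 2, against 1 gene the other way.

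The 4 libraries were then compared with edgeR's quasi-likelihood test over the 8639 genes with enough counts, at an adjusted p under 0.05. Over all genes tested, 851 were higher in IgG (9.85%) and 6713 were lower (77.7%), and 5765 of the lower ones had 0 counts in both IgG libraries. The 851 include all 126 genes of the IgG-only set, whose rule fixed their direction, and 133 genes of neither set. The 9.85% set beside the gene lists below counts them too. In the main set, 592 genes were higher, 344 were lower and 861 did not pass. The higher genes had a median Input level of 88.0 CPM and a median IgG level of 618 CPM, and the lower ones 284 and 52.6 CPM. The median log2 change was 0.39 over the main set and -9.60 over all genes tested. Fitted values of genes at 0 in both libraries of a kind depend on edgeR's prior count, and with such genes at the bound that 3 counts per library allow, the median of all genes tested was -3.84. Medians of gene lists below are given in that bounded form. Leaving out IgG 1 left 300 higher and 216 lower main-set genes, and leaving out IgG 2 left 351 and 164.

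The share of higher genes among those called depended on how the libraries were put on 1 scale. It was 63.2% with the TMM scaling used here, 74.2% with plain library totals, 73.9% with all 6 libraries in the fit, and 47.7% when the fit held main-set genes alone. The median of the main set moved with it, from 0.39 to 0.78, 0.80 and -0.06. CPM levels use plain totals, so a log2 change below lies about 0.39 under the log2 ratio of the CPM printed beside it. On the CPM scale both IgG libraries lay above both Input libraries for 1076 main-set genes, below them for 434, and the ranges overlapped for 287.

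**Figure D2:**
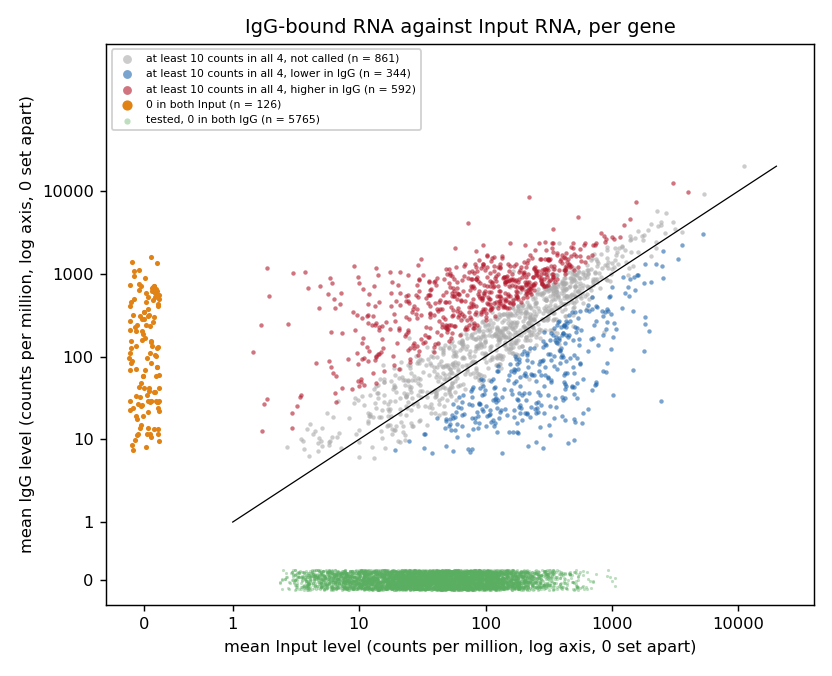
Mean IgG level against mean Input level of each gene (CPM, both axes logarithmic with 0 set apart, line of equality drawn). Points are the 592 higher (red), 344 lower (blue) and 861 uncalled (grey) genes of the main set, the 126 IgG-only genes (orange, left) and the 5765 genes tested that had 0 counts in both IgG libraries (green, bottom).

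The most abundant RNA on the IgG beads was that of a stromal gene. Spp1, which encodes the bone matrix protein osteopontin, had 10482 and 11500 CPM in Input against 17368 and 23206 on IgG beads, and its log2 change did not pass the test. The next 9 genes were Apoe, Fth1, CYTB, Apoa1, the unnamed gene with Entrez number 100861531, Id3, Hp, Apoa2 and Itm2b. Apoe, the apolipoprotein E gene, had 3030 and 3066 CPM in Input against 11272 and 13541 on IgG beads. It rose by 1.63 ± 0.26 (log2, SE; adjusted p = 0.000574, edgeR). Fth1 encodes the ferritin heavy chain, CYTB mitochondrial cytochrome b, Id3 a transcription inhibitor and Hp haptoglobin. All 4 lay above both Input libraries in both IgG libraries on the CPM scale, as did 1076 of the 1797 main-set genes. They were picked for a high IgG level, so this is no finding about them, and CYTB, Id3 and Hp did not pass the test.

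The largest increases within the main set were of genes that are scarce in Input, with functions from proteolysis to signalling. Ctse, which encodes the aspartic protease cathepsin E, had 17 and 13 counts in Input and 2779 and 1620 counts in IgG, where the libraries were shallower. That is 2.39 and 1.37 CPM against 1117 and 1267 CPM, a log2 change of 8.95 ± 0.48 (adjusted p = 0.000106, edgeR). Its anti-m6A libraries held 3.61 and 4.48 CPM, close to Input. Jak2, the kinase of cytokine receptors, showed the same pattern with 7.02 and 4.74 CPM in Input, 884 and 910 on IgG beads and 6.39 and 7.79 on anti-m6A beads. C1rl, a relative of the complement protease C1r, had 2.53 and 4.95 CPM in Input, 1065 and 1046 on IgG beads and 4.43 and 2.34 on anti-m6A beads. The unnamed gene with Entrez number 100042318 had 1.97 and 1.37 CPM in Input, 236 and 250 on IgG beads and 1.80 and 1.75 on anti-m6A beads, a log2 change of 6.81 ± 0.57. For these 4 genes the anti-m6A levels stayed near those of Input.

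Other genes with large increases were also above Input on the anti-m6A beads. Washc3, a subunit of the WASH complex on endosomes, had 4.77 and 3.06 CPM in Input, 693 and 644 on IgG beads and 193 and 206 on anti-m6A beads. Ptrh2, a peptidyl-tRNA hydrolase of mitochondria, had 9.26 and 2.95 CPM in Input, 779 and 773 on IgG beads and 119 and 138 on anti-m6A beads. Tmem115 of the Golgi membrane, Trmu, which modifies mitochondrial tRNA, and the DnaJ co-chaperone gene Dnajc18 followed with log2 changes of 8.10 ± 0.53, 7.75 ± 0.54 and 6.79 ± 0.59. The last of the 10, S100a9, is described with the blood genes. All 10 passed the threshold in each alternative fit.

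The largest decreases within the main set included genes of matrix, cytoskeleton and cell surface, beside genes of membrane traffic. Col1a2, one of the 2 chains of type I collagen, had 17840 and 22702 counts in Input and 80 and 33 counts in IgG. On the CPM scale that is 2504 and 2391 against 32.2 and 25.8, and the log2 change was -6.77 ± 0.39 (adjusted p = 0.000106, edgeR). Vim, the intermediate filament gene vimentin, had 1115 and 938 CPM in Input against 48.7 and 20.3 on IgG beads. Pdgfrb, the receptor of platelet-derived growth factor on stromal cells and pericytes, had 518 and 661 CPM in Input against 31.8 and 10.2 on IgG beads. Lifr, the receptor of leukaemia inhibitory factor, fell by 5.15 ± 0.56. The other 6 were Ap1s1, Rala and Chmp2a, which act in membrane traffic, Srsf5, a splicing factor, Serp1, a protein of the endoplasmic reticulum, and Tmem223, with log2 changes from -6.07 to -5.15.

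Genes at 0 in both IgG libraries included some of the most abundant of Input. Tubb5, a beta-tubulin, had 1095 and 1033 CPM in Input, at least 599-fold above what 3 counts per IgG library stand for. Akr1a1, an aldo-keto reductase, had 1011 and 1089 CPM and was at least 591-fold lower in IgG. Igf1, the insulin-like growth factor made by stroma, had 1009 and 979 CPM and was at least 560-fold lower. The next 7 by Input level were Copz2, Sub1, Hsp90ab1, Lman2, Serping1, Hsd17b10 and Ptprd, with bounds from at least 385-fold to at least 545-fold lower. The anti-m6A beads carried these 10 RNAs, for example Tubb5 at 1842 and 1288 CPM and Igf1 at 1329 and 1400 CPM. Whether such a gene was lost at the beads or in making a small library was not tested.

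Markers of the sorted stroma split into a few genes that stayed on the beads and many that did not. Of 26 niche factors and stromal progenitor markers, 22 were tested, 0 were higher and 19 were lower in IgG, beside 77.7% of all genes tested, and 11 of those counted in both Input libraries were at 0 in both IgG libraries. Their median log2 change was -5.62 in the bounded form and -8.06 as fitted. Cxcl12 itself had 5731 and 4751 CPM in Input against 2835 and 3248 on IgG beads and fell by 1.16 ± 0.25 (adjusted p = 0.00229, edgeR). With IgG 1 left out its adjusted p was 0.078, and with IgG 2 left out it was 0.0705. Lepr, the leptin receptor that marks adult stroma, had 324 and 315 CPM in Input against 16.1 and 13.3 on IgG beads. Vcam1, an adhesion molecule of the niche, had 1052 and 947 CPM in Input against 25.7 and 7.04 on IgG beads.

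Niche genes at 0 on both IgG libraries were Kitl, Csf1, Angpt1, Prrx1, Ptn, Pdgfra and 4 others beside Igf1. Kitl, the ligand that haematopoietic stem cells need, had Input levels of 276 and 332 CPM and lay at least 171-fold under them on the beads. Csf1, the growth factor of macrophages, had 397 and 418 CPM and was at least 229-fold lower. Despite these losses the whole list took 2.23% and 2.20% of Input counts and 2.15% and 2.68% of IgG counts, with Spp1 and Cxcl12 as its most abundant members. With plain library totals 2 genes of the list were higher and 18 lower, and leaving out an IgG library left 15 or 16 lower. Lepr, Vcam1, Kitl, Csf1 and the genes named with them were chosen after their values were seen, except Cxcl12 and Spp1.

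Matrix genes were called lower about as often as all genes tested, of which 77.7% were lower. Of 26 collagen genes 19 were tested, 2 were higher and 16 lower (84.2%), the bounded median was -6.50, and their share of counts was 0.791% and 0.811% in Input and 0.233% and 0.245% in IgG. Col1a1, the partner chain of Col1a2 in type I collagen, was not called, with 912 and 1471 CPM in Input against 1533 and 1710 on IgG beads. The gene that rose most was Col5a3, a minor fibrillar collagen, with 18.1 and 19.8 CPM in Input against 299 and 357 on IgG beads, a log2 change of 3.71 ± 0.48 (adjusted p = 0.00024, edgeR). Of 26 non-collagen matrix genes, all tested, 0 were higher and 22 lower (84.6%), with 12 at 0 in both IgG libraries and a bounded median of -4.47. The 3 most abundant of them on the beads, Sparc, Fn1 and Vcan, did not pass the test. Decorin (Dcn), a collagen-binding proteoglycan chosen after its values were seen, had 500 and 492 CPM in Input against 75.2 and 74.3 on IgG beads and fell by 3.12 ± 0.39.

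The bone and fat lineages showed the same mixture. Of 21 osteogenic genes 14 were tested, 1 was higher and 9 were lower (64.3%, beside 77.7% of all genes tested). Of 17 adipogenic genes 13 were tested, 2 were higher and 9 lower (69.2%). Osteocalcin (Bglap) was the higher osteogenic gene, with 79.2 and 39.7 CPM in Input against 389 and 325 on IgG beads, a log2 change of 2.26 ± 0.46, and was chosen after its values were seen. Its neighbour Bglap2 is a near-identical copy, so how reads were split between them is uncertain. The adipocyte hormone gene Adipoq did not pass with 1226 and 1173 CPM in Input against 2176 and 2133 on IgG beads, whereas the fat regulator Pparg, also chosen after its values were seen, had 134 and 144 CPM in Input and 0 in both IgG libraries. Of 24 genes of secreted growth factors and cytokines, 19 were tested, 1 was higher and 17 lower (89.5%). Midkine (Mdk) led them in IgG with 3635 and 3920 CPM and no call.

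Most genes of the m6A machinery were at 0 on the IgG beads. Of 22 writers, erasers and readers 19 were tested, 1 was higher and 16 were lower, and 16 of those counted in both Input libraries were at 0 in both IgG libraries. Beside the 77.7% lower over all genes and their median of -3.84, the list's median of -3.83 does not set it apart. Mettl3, the catalytic writer, had 17.8 and 9.59 CPM in Input against none on the IgG beads, which puts it at least 7.72-fold lower. The gene called higher was the demethylase gene Fto, with 104 and 50.8 CPM in Input, 899 and 836 on IgG beads and 22.8 and 18.7 on anti-m6A beads. Its log2 change was 3.16 ± 0.41 (adjusted p = 0.000253, edgeR), and it stayed higher in each alternative fit. Hnrnpa2b1, a nuclear RNA-binding protein proposed as a reader, did not pass at 1148 and 838 CPM in Input against 1428 and 1253 on IgG beads. Wtap, a writer subunit, differed between libraries of the same kind, with 601 and 66.2 CPM in Input against 717 and 22.7 on IgG beads.

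Fewer transcripts of the respiratory chain were called lower than of all genes tested, of which 9.85% were higher and 77.7% lower. Of 81 nuclear genes for oxidative phosphorylation subunits 78 were tested and 65 belong to the main set, where 11 were higher and 6 lower. Over all tested, 11 were higher (14.1%) and 18 lower (23.1%), with a median log2 change of 0.12. Their share of counts was 2.99% and 3.07% in Input and 4.85% and 4.39% in IgG, and it was 5.34% and 5.66% in anti-m6A. Atp5b, the beta subunit of ATP synthase, had 447 and 240 CPM in Input against 1735 and 1949 on IgG beads and rose by 2.08 ± 0.33. Sdhc, a subunit of succinate dehydrogenase chosen after its values were seen, rose by 2.35 ± 0.34 from 208 and 226 CPM to 1379 and 1544 CPM. The balance turned with the scale: 32 were higher and 13 lower with library totals, and 6 higher and 14 lower when the fit held main-set genes alone. Leaving out IgG 1 left 2 higher and 10 lower, and leaving out IgG 2 left 4 and 9.

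Most cytosolic ribosomal protein genes stayed on the beads. Of 88 genes 84 were tested, 70 belong to the main set, and 3 were higher and 25 lower (29.8%, beside 77.7% of all genes tested). Of those counted in both Input libraries, 3 were at 0 in both IgG libraries. They took 1.83% and 1.89% of Input counts and 2.10% and 2.03% of IgG counts. With library totals 13 were higher and 17 lower, with 6 libraries 18 were higher and 20 lower, and with main-set genes alone 0 were higher and 21 lower, so no direction holds for them under every scale. Leaving out IgG 1 or IgG 2 left 11 or 12 lower. The 3 most abundant in IgG, Rpl4, Rps14 and Rplp0, were not called.

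Of 78 genes of the mitochondrial ribosome 73 were tested, 12 were higher and 50 lower (68.5%, beside 77.7% of all genes tested), and 48 were at 0 in both IgG libraries. The bounded median of the 73 was -5, beside -3.84 over all genes tested. Within the 24 that belong to the main set, 11 were higher and 2 lower, beside 592 and 344 of all 1797 main-set genes. The median log2 change of the 24 was 0.95, beside 0.39 over the main set. The main set asks for counts in both IgG libraries, so the members at 0 there are left out of these values. Mrpl37, a protein of the large mitochondrial subunit, had 118 and 72.3 CPM in Input against 1111 and 1362 on IgG beads and rose by 3.35 ± 0.36 (adjusted p = 0.000124, edgeR). Leaving out an IgG library left 7 or 8 of the list higher.

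RNAs encoded by the mitochondrial genome made up 1.18% and 1.63% of Input counts and 1.89% and 2.22% of IgG counts. In anti-m6A they made up 0.569% and 0.505%, below both. Of 15 genes 0 were higher and 3 were lower, the complex I genes ND2, ND3 and ND4. ND2, chosen after its values were seen, had 659 and 883 CPM in Input against 175 and 100 on IgG beads and fell by 2.88 ± 0.47 (adjusted p = 0.000717, edgeR). With library totals 6 mitochondrial genes were higher and 3 lower. CYTB, COX1 and ND1, the 3 most abundant in IgG, lay above both Input libraries in both IgG libraries and were not called.

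Other housekeeping groups were called lower at shares at or below the 77.7% of all genes tested. Of 64 translation factor genes 58 were tested with 8 higher and 43 lower (74.1%), of 43 proteasome genes 40 were tested with 6 higher and 26 lower (65.0%), and of 31 cytoskeleton genes 28 were tested with 3 higher and 18 lower (64.3%). Of 16 glycolysis genes 13 were tested with 1 higher and 10 lower (76.9%), and of 19 chaperone genes 18 were tested with 2 higher and 12 lower (66.7%). None of 17 immediate early genes was higher, and 10 of the 14 tested were lower (71.4%). Proteasome genes took 1.10% and 1.36% of Input counts and 1.49% of each IgG library. The cytoskeleton genes took 2.17% and 1.97% of Input counts and 1.99% and 2.00% of IgG counts, and the immediate early genes 0.334% and 0.315% of Input and 0.185% and 0.206% of IgG. An abundant member kept on the beads was the translation factor gene Eif5a with 1895 and 1698 CPM in Input against 2721 and 3117 on IgG beads, which was not called.

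Among the lists of other cell types, liver genes took the largest share of the IgG counts. The 50 hepatocyte genes of the list took 0.514% and 0.993% of Input counts, 5.34% and 5.53% of IgG counts, and 0.655% and 0.659% of anti-m6A counts. Of the 36 tested, 23 were higher and 2 lower, beside 9.85% and 77.7% of all genes tested. Only 22 of the 50 were counted in both Input libraries, so many members passed the filter on low counts through IgG, where they are high, 4 of them from the IgG-only set, and the 23 is no support for a direction. Among the 16 in the main set 11 were higher and 1 lower, beside 592 and 344 of all 1797 main-set genes. The 11 depended on the fit: it was 7 with no filter on low counts or with main-set genes alone, and 15 with library totals. The median log2 change of the 16 was 2.75, beside 0.39 over the main set. This median was 2.48 without Input 1, 5.24 without Input 2, 2.76 without IgG 1 and 2.81 without IgG 2. Apoa1, the main protein of high-density lipoprotein, had 27.4 and 415 CPM in Input against 8041 and 9150 on IgG beads. Rbp4, the plasma carrier of vitamin A, had 222 and 467 CPM in Input against 3196 and 3740 on IgG beads and rose by 2.88 ± 0.48 (adjusted p = 0.000748, edgeR). Both IgG libraries lay above both Input libraries for each of these genes.

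The Input libraries themselves differed in liver transcripts. Ttr, the transthyretin gene, had 1.82 CPM in Input 1 and 145 CPM in Input 2, and 3891 and 4256 CPM in IgG. Albumin (Alb) had 16.0 and 174 CPM in Input against 2309 and 2215 on IgG beads. Without Input 1, 30 hepatocyte genes were higher and 7 lower, and without Input 2, 33 and 2. Without IgG 1, 10 were higher and without IgG 2, 11, and the calls of Apoa1, Alb and Ttr were then lost, with adjusted p of 0.105 and 0.106 for Apoa1, 0.122 and 0.111 for Alb and 0.163 and 0.161 for Ttr. Ttr also missed with no filter on low counts (adjusted p = 0.0756) and with at least 10 counts asked of each library (adjusted p = 0.0655). Rbp4 kept its call without either.

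Not every liver gene was on the beads. Neither IgG library had a count for 13 of the 50, and 5 of these were also at 0 in Input. Ambp and Tdo2, a plasma protein precursor and a tryptophan-degrading enzyme, were at 0 in Input 1 and at 83.6 and 49.2 CPM in Input 2, and at 0 in both IgG libraries. Transferrin (Trf), which stroma also expresses, fell by 2.43 ± 0.35 from 1603 and 1352 CPM to 416 and 289 CPM. The Serpina1 genes are near-identical copies, and their separate counts are uncertain. What the liver transcripts contribute to other differences between IgG and Input was not tested. Rbp4, Ttr, Alb, Trf, Ambp and Tdo2 were chosen after their values were seen.

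Erythroid and neutrophil transcripts took larger shares of IgG than of Input counts, although the sort left out CD45-positive and Ter119-positive cells, whereas lymphoid, platelet and mast cell transcripts took smaller ones. These shares describe RNA in the libraries and do not measure how many cells of a type were present. Why they differ between IgG and Input was not tested. The 19 erythroid genes took 0.0759% and 0.0963% of Input counts and 0.377% and 0.426% of IgG counts, and 4 of 8 tested were higher, 1 of them from the IgG-only set, and 3 lower. The alpha-globin gene Hba-a2 had 191 and 211 CPM in Input against 1312 and 1494 on IgG beads and rose by 2.40 ± 0.34 (adjusted p = 0.000389, edgeR). Its copy Hba-a1 is near-identical, so their counts may be shared. The erythroid genes Car2, Trim10 and Slc4a1 were counted in both Input libraries and at 0 in both IgG libraries, so globin RNA did not stand for the whole list, of which 13 genes were at 0 in both IgG libraries. With IgG 1 or IgG 2 left out, 2 erythroid genes were higher. Car2, Trim10 and Slc4a1 were chosen after their values were seen.

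Among 23 neutrophil and monocyte genes 10 were tested, 5 were lower and 4 higher, 1 of these being Mpo of the IgG-only set, whose rule used this contrast, and the list took 0.0900% and 0.116% of Input counts and 0.369% and 0.300% of IgG counts. S100a9, a calcium-binding protein of neutrophil granules, had 7.30 and 2.42 CPM in Input against 840 and 594 on IgG beads, a log2 change of 6.91 ± 0.63 (adjusted p = 0.00011, edgeR). Camp, the cathelicidin antimicrobial peptide, rose by 2.53 ± 0.42 from 60.5 and 67.4 CPM to 509 and 464 CPM. S100a8, the partner of S100a9, had 29.9 and 136 CPM in Input, 1442 and 1194 on IgG beads and 0 in both anti-m6A libraries. Its call was lost without IgG 1 (adjusted p = 0.0902) or IgG 2 (adjusted p = 0.0708). The granule genes Ltf and Prtn3 and the macrophage receptor gene Csf1r, chosen after their values were seen, were counted in both Input libraries and at 0 in both IgG libraries. The part of these blood transcripts in other results was not tested.

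Markers of the remaining cell types were rare on the IgG beads. The 12 endothelial genes took 0.0399% and 0.0379% of Input counts and 0 and 1 count of IgG. All 6 tested were lower, beside 77.7% of all genes tested. All genes tested were also lower for pericytes and smooth muscle (5 of 10 in the list tested), osteoclasts (3 of 9), Schwann and neural cells (3 of 15), chondrocytes (3 of 14), platelets and mast cells (2 of 10), epidermis (3 of 13), and for the single gene tested of pancreas, kidney and testis. With so few genes tested per list, these calls do not set the lists apart from all genes tested. Of 19 lymphoid genes 2 were tested, Rag1 of the IgG-only set and Ebf1, which was lower, and the list took 0.0306% and 0.0172% of Input counts and 0.00539% and 0.00219% of IgG counts. Of 19 skeletal muscle genes 7 were tested, 1 was higher and 3 lower, and the list took 0.00435% of Input 1, 0.0956% of Input 2 and 0.0478% and 0.0355% of IgG. With either IgG library left out none of the muscle genes was called, with the replicate block 0 were higher and 2 lower, and without Input 1 the counts were 1 and 10. The gut gene Lgals4, a galectin, was the single tested gene of 12 and had 34.8 and 13.9 CPM in Input against 293 and 128 on IgG beads. It was called higher (adjusted p = 0.00335, edgeR), but not without IgG 1 (0.082).

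**Figure D3:**
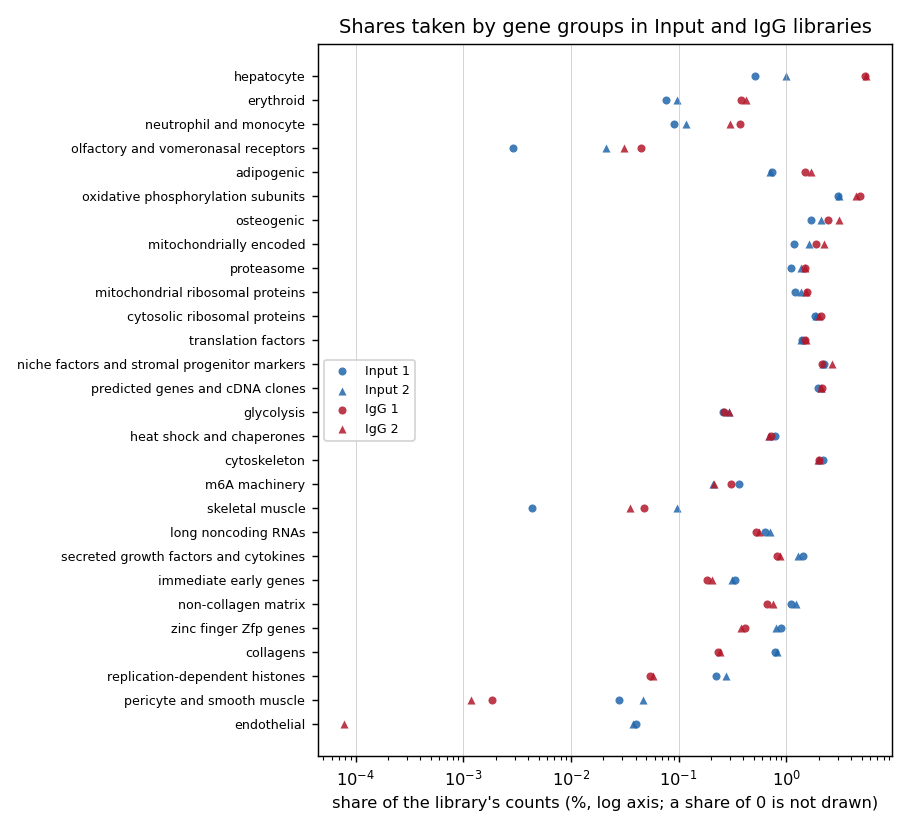
Share of each library's counts (%, log axis) taken by groups of genes, with Input in blue, IgG in red, circles for library 1 and triangles for library 2. Hepatocyte, erythroid and neutrophil genes lie to the right in both IgG libraries, with 5.34% and 5.53% of counts for hepatocyte genes. Collagens, pericyte and endothelial genes lie to the left, as does the histone list, whose Input share is mostly that of H1f0.

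Gene classes of low expression gave mixed values. Of 64 histone genes in a list drawn up for replication-dependent ones 15 were tested, 8 were higher and 5 lower. Only 2 of the 8 belong to the main set, and the others passed the filter through IgG, where they are high, and are at 0 in 1 or both Input libraries. Without IgG 1 the number higher was 2 and without IgG 2 it was 1. The list took 0.221% and 0.273% of Input counts and 0.0545% and 0.0580% of IgG counts. Most of its Input share was that of H1f0, a linker histone of resting cells that is not replication-dependent. H1f0 had 1872 and 2058 CPM in Input against 197 and 213 on IgG beads. The lower IgG share of the list is thus no result about replication-dependent histones. Several histone genes are near-identical copies, and their separate counts are uncertain. Of 399 Zfp zinc finger genes 154 were tested, 7 were higher, 2 of them in the main set, and 140 lower (90.9%, beside 77.7% of all genes tested). Of 3548 predicted genes and cDNA clones 401 were tested, 53 were higher, 24 of them in the main set, and 250 lower (62.3%), and 15 belong to the IgG-only set. Of 1479 olfactory and vomeronasal receptor genes 8 were tested, 5 were higher and 3 lower, beside 9.85% and 77.7% of all genes tested. None belongs to the main set, and 3 belong to the IgG-only set, whose rule used this contrast. The 5 is thus no support for a direction. None of 55 keratin-associated protein genes was tested.

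Long noncoding RNAs were called at shares near those of all genes tested, 9.85% higher and 77.7% lower. Of 24 named ones 18 were tested, 2 were higher (11.1%) and 14 lower (77.8%). The imprinted H19, chosen after its values were seen, had 1354 and 2037 CPM in Input and 0 and 1 count in IgG. Malat1, a nuclear RNA, stayed with 3622 and 3485 CPM in Input against 2953 and 3499 on IgG beads and was not called. The snoRNA host gene Snhg5 had 47.6 and 128 CPM in Input against 840 and 798 on IgG beads and was called (adjusted p = 0.00249, edgeR), but not without IgG 1 (0.0776) or IgG 2 (0.0653).

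By RefSeq class the background was mRNA. Protein-coding genes made up 89.8% of the main set and took 93.7% and 93.4% of IgG counts, against 95.3% and 94.7% of Input. Long noncoding RNAs took 1.18% and 1.15% of IgG counts and 1.21% and 1.28% of Input, and pseudogenes 1.71% and 1.75% of IgG and 1.52% and 1.56% of Input. The main set held 100 pseudogenes, which share sequence with their parents, so their separate counts are uncertain. The other main-set genes were 24 long noncoding RNAs, 14 mitochondrially encoded genes, 42 without an entry in the RefSeq table, 2 miRNA genes and 1 snoRNA gene.

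Recovery fell with transcript length on the CPM scale and showed no single order by length per kilobase of transcript. At 100 to 500 CPM of Input, 61.8% of 267 genes with transcripts under 1000 bases were found in both IgG libraries. The share was 33.8% of 470 genes at 2000 to 3000 bases and 22.0% of 323 genes at 5000 bases or more. At equal CPM a long transcript stands for fewer molecules than a short one. Among genes with 100 to 200 Input CPM per kilobase of transcript, 45.4% of 97 genes under 1000 bases and 37.65% of 255 genes at 1000 to 2000 bases were found. At 2000 to 3000 bases it was 55.1% of 109 genes and at 3000 to 5000 bases 60.0% of 55, so the order of the CPM scale did not hold there. The last class held 9 genes. At 20 to 50 Input CPM per kilobase the shortest genes were found most often, 29.7% against 15.2% to 20.0% in the longer classes. At 50 to 100 the share was 36.1% under 1000 bases, 24.5% at 1000 to 2000 and 40.9% at 3000 to 5000. GC content showed little relation to recovery at 100 to 500 CPM, with 31.7% to 38.7% found over 5 classes. These shares are descriptions over genes, and 89.8% of the main set had transcript values.

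**Figure D4:**
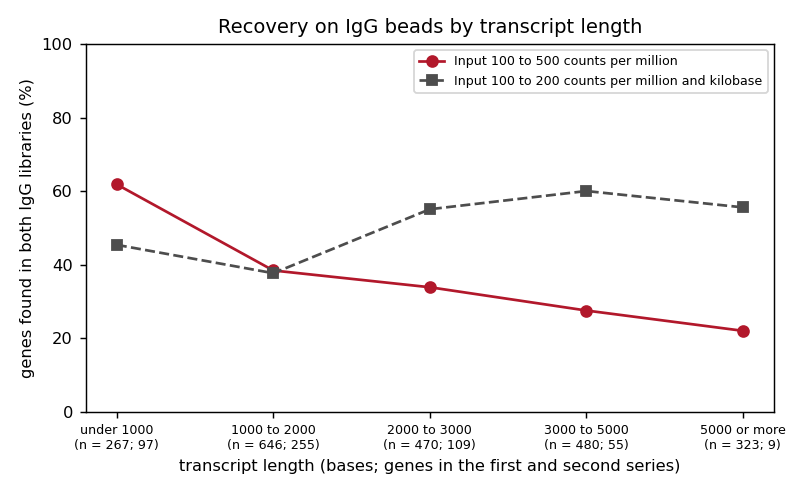
Share of genes (%) found in both IgG libraries by transcript length (bases, number of genes of both series in brackets). The red line takes genes at 100 to 500 Input CPM and falls from 61.8% to 22.0%. The dashed grey line takes genes at 100 to 200 Input CPM per kilobase, with 9 genes in its last class. It lies at 45.4% under 1000 bases, 37.65% at 1000 to 2000 and 60.0% at 3000 to 5000.

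The IgG-only set is defined by counts of 0 in Input, so the values that follow are descriptions and its difference from Input is no finding. Its 126 genes lay on 20 chromosomes and took 3.23% and 3.14% of the IgG counts. Their mean IgG level ran from 7.51 to 1581 CPM with a median of 108, and 65 genes exceeded 100 CPM. The IgG libraries lay within 2-fold of each other for 111 of the 126. Each Input library was deeper than each IgG library, yet had no count for these genes. Without Input 2 the rule finds 205 genes, and without Input 1 it finds 134.

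Of the 10 most abundant IgG-only genes 5 are liver genes, and some of these were counted in neither other kind of library. Agxt, a liver enzyme that detoxifies glyoxylate, had 3570 and 2208 counts in IgG and 0 in both Input and both anti-m6A libraries. Cyp2c70, a hydroxylase of bile acids, had 1905 and 973 counts in IgG and 0 in the same 4 libraries. Hpx, the haem-binding plasma protein haemopexin, had 3624 and 1716 IgG counts against 86 and 55 with anti-m6A. Fbp1, an enzyme of glucose synthesis, and the lipoprotein gene Apom also belong to the first 10, with 982 and 906 CPM and 741 and 721 CPM in IgG.

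Genes with no link to liver stood beside them. Pcdhb21, a neuronal protocadherin, had 1312 and 1430 CPM in IgG, and 4 and 0 counts in anti-m6A. Cyyr1, a small membrane protein, had 1045 and 1181 CPM on IgG beads and 14.9 and 14.4 on anti-m6A beads. Ppp1r12b, a subunit of myosin phosphatase, had 1023 and 1132 CPM on IgG beads, with 3 and 6 counts in anti-m6A. Mtrf1l, a release factor of mitochondrial translation, and the noncoding clone 2610027K06Rik complete the 10. Together the 10 took 31.9% and 34.7% of the set's IgG counts.

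**Figure D5:**
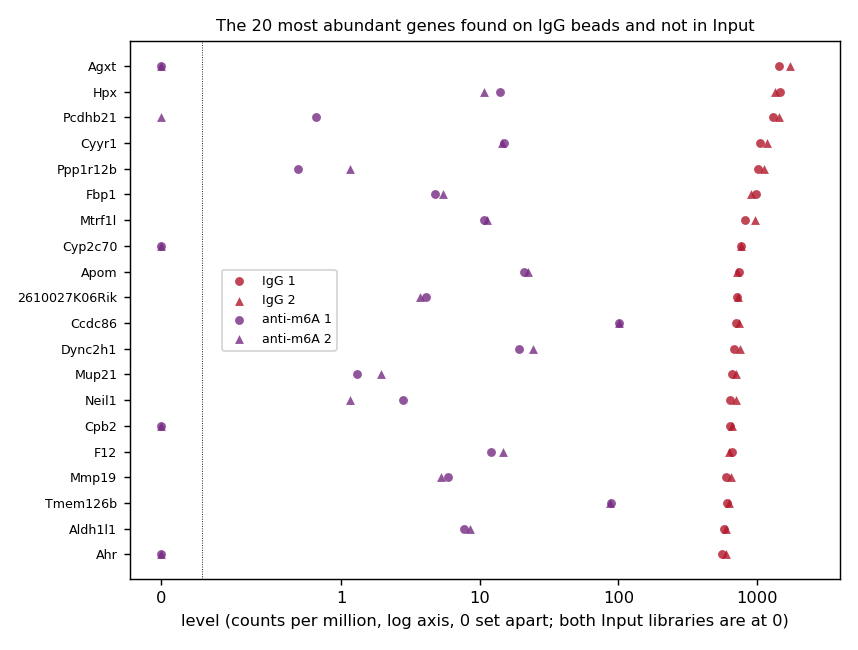
The 20 most abundant IgG-only genes, with their level (CPM, log axis, 0 set apart) in both IgG libraries (red) and both anti-m6A libraries (purple), circles for library 1 and triangles for library 2. Both IgG libraries lie close together for each gene, and Agxt, Cyp2c70, Cpb2 and Ahr lie at 0 in both anti-m6A libraries.

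Sorted by what the genes are known for, with groups named after the values were seen, 19 of the 126 are liver enzymes and plasma proteins and took 33.5% and 34.3% of the set's IgG counts. The liver genes include Mup21, Cpb2, F12, Aldh1l1, Hsd17b13, Cyp2c50 and Serpinf2. A group of 8 are genes of blood and immune cells, such as Mpo, the myeloperoxidase of granulocytes, Rag1, the recombinase of lymphocytes, and the Fc receptor gene Fcgr2b. Transcription factors and regulators number 9, among them Ahr, Usf2 and Gata6. Ion channels and solute carriers number 6, proteins of cilia and microtubules 5, mitochondrial proteins 4, chemosensory receptors 3, DNA repair enzymes 2 and genes of meiosis or sperm 2. Long noncoding RNAs number 11. The 57 genes in no such group took 32.2% and 31.6% of the set's counts.

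A single miRNA gene belongs to the IgG-only set. Mirlet7d, the gene of let-7d, lies on chromosome 13 from 48536012 to 48536114 of GRCm38 on the minus strand. It had 454 and 242 counts in IgG, 0 in both Input libraries and 20 and 25 in anti-m6A. The let-7 family represses mRNAs through the seed at bases 2 to 8 of the mature strand. Both mature arms, from RefSeq for GRCm38.p6 with the seed in capitals, are shown to tell apart the 2 products of the gene. The 5p arm carries the family's seed, and the 3p arm another.
mmu-let-7d-5p: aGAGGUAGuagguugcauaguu
mmu-let-7d-3p: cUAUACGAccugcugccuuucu
The counts are per gene and do not say which stretch of the precursor or of an overlapping transcript was read, and a library primed on poly(A) does not measure the mature strands.

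The main set held 2 more miRNA genes, neither of which was called. Mir682 had 414 and 314 CPM in Input against 668 and 529 on IgG beads, and Mir703 had 5.89 and 7.48 CPM in Input against 11.3 and 10.2 on IgG beads. Their mature sequences share no seed with each other or with let-7d.
mmu-miR-682: cUGCAGUCacagugaagucug
mmu-miR-703: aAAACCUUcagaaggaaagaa
The snoRNA gene Snord55 of the main set had 9.12 and 7.27 CPM in Input against 94.9 and 94.6 on IgG beads. It is 1 of the 592 higher genes, and was chosen for its class after its values were seen.

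The counts of the anti-m6A libraries were not used to choose the IgG-only set. Of the 126 genes 55 were at 0 in both anti-m6A libraries, 8 were counted in 1 of them and 63 in both. At least 10 counts in both were reached by 49 genes, which is 38.9% of the set. Among 15540 other genes at 0 in both Input libraries, 8.05% reached that level, and in the main set 97.8% did. Of the 15540 genes 15271 were also at 0 in both IgG libraries, so they are no like group to set beside genes chosen for their IgG counts. Where a gene was counted in both anti-m6A libraries, its median ratio of IgG to anti-m6A CPM was 27.5, and the anti-m6A level was above the IgG level for 2 of the 126. The rule asked for counts in IgG and so favours high IgG values, and these last values are a description.

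Of the 19 liver genes 9 were at 0 in both anti-m6A libraries, and of the 8 blood genes 5. All 5 cilia and microtubule genes reached at least 10 counts in both, while the 3 chemosensory receptor genes and both genes of meiosis or sperm were at 0. These groups are small, and the differences between them were not tested. Among genes just inside the limit of 10 IgG counts were Slc22a26 with 17 and 12 counts and Atat1, a tubulin acetyltransferase, with 38 and 10. Just outside were Txnrd2 with 5 and 6 and Prg2, an eosinophil granule protein, with 38 and 9, and 15 genes lay on each side within 5 counts of the limit.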

How the data were processed

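Raw gene counts were deposited as a single table of 6 libraries, 2 each of Input, IgG-bound and anti-m6A-bound RNA, made by the Smart-seq2 method per the labels' protocols. Tools named in the submitters' processing notes are edgeR 3.38.1, featureCounts and Picard, with the build mm10. Aligner and annotation were not given in the sources used here. Libraries do not mark strand, so overlapping and antisense genes cannot be told apart. Columns were matched to samples by name.

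The 2 IgG and 2 Input libraries were fitted in R 4.3.3 with edgeR 4.0.16 (filterByExpr with a minimum count of 10 and total of 15, TMM, glmQLFit and glmQLFTest, 2 residual degrees of freedom, Benjamini-Hochberg threshold 0.05 over 8639 genes). Each SE was computed as the absolute log2 change divided by the square root of the test's F value, and is not printed by edgeR. Scripts were tested on simulated data. Alternatives used DESeq2 1.42.0 size factors and its Wald test, library totals, other filters, all 6 libraries, a replicate block and each library left out. Symbols and classes come from RefSeq GRCm38.p6, which matched 25275 of 27179 genes, and transcript lengths from GENCODE on GRCm38. Python 3.11.15 computed shares.

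Named genes were the 10 most abundant in IgG, the 10 largest changes each way, the 10 most abundant of the IgG-only set and of those at 0 in IgG, the 3 highest of each list, and Cxcl12, Mettl3 and Fto; others are marked where named. The members, lists and rules were chosen with earlier results of these data known.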

Additional observations from a re-analysis of the deposited data

How the results depend on the processing

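Each IgG library carried much of the result. Leaving out 1 library at a time gave 446 to 996 genes higher and 5614 to 7128 lower, 300 to 684 and 164 to 357 of them in the main set, and 127 to 205 genes in the IgG-only set. Without an IgG library the lone one is assumed to vary like the Input pair. A fit restricted to main-set genes called 431 higher and 473 lower. Summing the IgG pair to 1 library, an alternative chosen after seeing the data, gave 553 higher, and 377 higher and 168 lower in the main set. Minimum counts of 5 and 20 gave main sets of 1955 and 1634 genes. With the replicate number as a block 650 genes were higher and 6488 lower, and 426 and 230 in the main set. The labels give a shared number without a shared source, and the deviations of IgG and Input within the 2 numbers correlated at 0.200 over 1797 genes. Of 43 genes named with a log2 change or a call, none changed direction in 472 alternative values, and 15 values of 7 genes missed the threshold, 7 of them without IgG 1 and 6 without IgG 2. The replicate block changed no call of these 43. The depth of the IgG libraries, 1278735 and 2487148 counts, limits what a 0 there can show.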

Other observations

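A few main-set genes differed between library 1 and library 2 of every kind. Of 1757 genes with at least 10 counts in all 6 libraries, 4 were at least 4-fold higher in library 1 than in library 2 for Input, IgG and anti-m6A alike, and 0 were so in the other direction. They are Wtap, a subunit of the m6A writer, the splicing-linked gene Arglu1, Insig1 of cholesterol regulation and the transcription factor Nfia. Wtap had 4279 and 628 counts in Input, 1784 and 29 in IgG and 3020 and 587 in anti-m6A. Within the IgG pair alone 42 genes were at least 4-fold higher in library 1 and 4 in library 2. These genes were picked after their values were seen, and the difference was not tested.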
